A study of Equus caballus with 10 samples.

Results

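The fibrillar collagen genes encode the chains of the collagens that assemble into banded fibrils. The 10 genes of the list were chosen by gene name: COL1A1, COL1A2, COL2A1, COL3A1, COL5A1, COL5A2, COL5A3, COL11A1, COL24A1 and COL27A1. Of these 10 genes, 9 have a row among the 29196 genes of the expression table, COL3A1 was not analysed here, and 8 had reads in at least 5 of the 10 libraries and were tested together with 17992 genes in all. COL2A1 had reads in 4 libraries and was described without a test.

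RNA was sequenced from primary tenocytes, the resident cells of tendon, taken from the superficial digital flexor tendon of adult horses and grown for 14 days in 3D collagen gels. The 2 groups of 5 libraries came from the same 5 donors, 1 cell line per donor. In the first group, PF-06650833 alone, an inhibitor of the IL-1 receptor-associated kinase IRAK4 was given daily at 100 nM. In the second, IL-1β plus PF-06650833, the cells received the same inhibitor together with IL-1β, an inflammatory cytokine, at 17 ng/ml every few days. Both groups carried the inhibitor, so the comparison is between cells with and without IL-1β in its presence, and cells without the inhibitor were not analysed here. The collagen of the gel is protein supplied from outside and adds no mRNA to the libraries. In these bulk samples, fewer cells of a type and less RNA per cell cannot be told apart.

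A fibrillar collagen molecule is a triple helix of 3 chains. Type I collagen, made from COL1A1 and COL1A2 chains, is the main protein of tendon. Types V and XI are minor collagens that sit within the fibril and take part in starting fibrils and setting their diameter, type II is the main collagen of cartilage, and types XXIV and XXVII are shorter-helix members of the family. The chains are hydroxylated and folded in the endoplasmic reticulum, trimmed by propeptidases outside the cell, assembled with partner proteins and cross-linked by lysyl oxidases.

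Expression is given on the deposited log2 scale, where 1 unit is a factor of 2 for well expressed genes and 3.43 stands for no reads. Differences are IL-1β plus PF-06650833 minus PF-06650833 alone. A gene was called changed by limma at an adjusted p below 0.05 with a log2 fold change of at least 1 in size. This main fit had no donor term although the groups share their donors, and results with the donor as a block are named as such. The words rose and fell are used of genes called without the block. The libraries held an estimated 26672336 to 36093461 reads in the first group and 27002119 to 33464155 in the second. Tenocyte markers were present (10 of 11 detected), but TNMD, which encodes tenomodulin, had 0 reads in all 10 libraries. The summed level of the tenocyte list ranged from 899580 to 1454889 normalized counts in the first group and from 256273 to 1030547 in the second. The members COL1A1 and COL1A2 held a large part of it (745803 and 566414 in donor 4 of the first group), so it is no separate measure of tenocytes. Of its other genes, SCX, MKX and COMP were called lower. Not called were DCN (1.01), EGR1 (0.47), PDGFRA (0.46), THBS4 (-1.22) and FMOD (-1.31).

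In the fit without a donor term, 2 of the 8 tested members fell with IL-1β, COL11A1 and COL5A1, and none rose. Over all tested genes 6.68% were called, 3.11% higher and 3.57% lower. When the donor was added to the model as a block, COL1A1 and COL1A2 were called as well, making 4 of 8 lower, against 8.26% of all genes called, 4.01% higher and 4.25% lower. The median log2 fold change of the 8 members was -0.92 and that of all tested genes was -0.01, and 7 of the 8 members lay below 0. In COL11A1 alone the 2 groups did not overlap, against 12.7% of all tested genes, 6.41% with the IL-1β group the lower one. Without the minimum fold change, 15.5% of all genes passed the adjusted p (7.89% lower), and 22.2% did with the block (11.3% lower); among the members this added none without the block, and COL5A2 and COL27A1 with it.

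**Figure D1:**
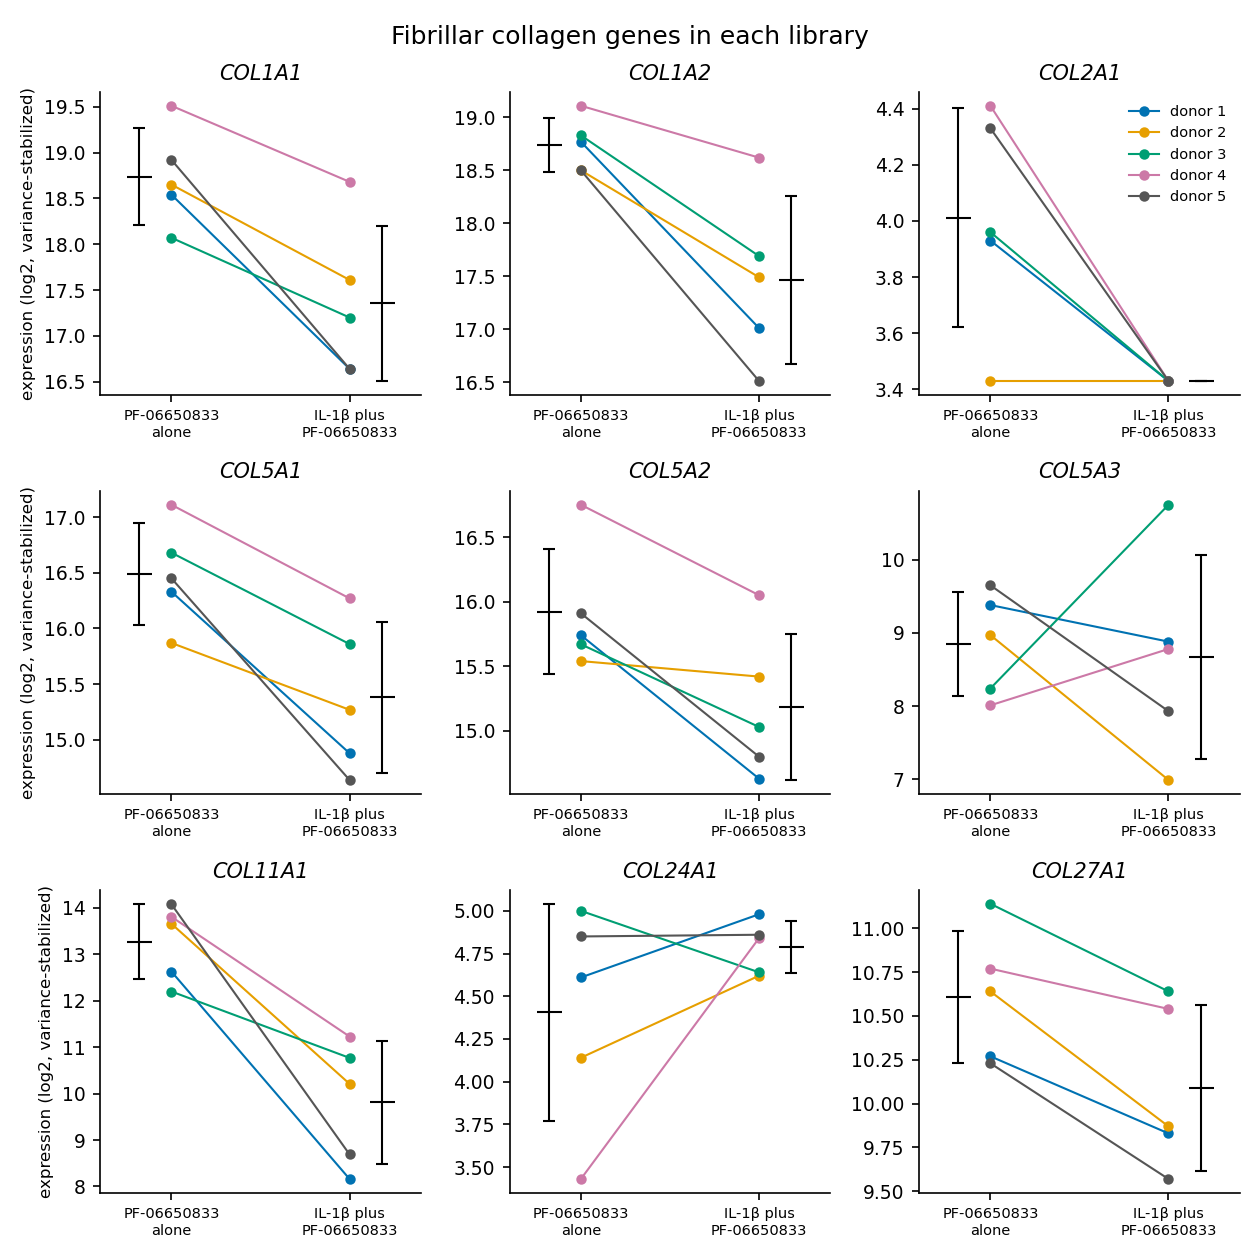
Log2 expression (y axis) of each fibrillar collagen gene with a row in the table, by group (x axis), with 1 point per library coloured by donor, lines joining the same donor, and bars for the group mean and SD. COL11A1 is the tested member whose groups are apart, with every IL-1β plus PF-06650833 library at or below 11.23 and every PF-06650833 alone library at or above 12.20.

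By normalized counts, which are not corrected for gene length, the type I collagen genes were among the highest of the cells. COL1A1, which encodes the α1 chain, stood at 18.54, 18.65, 18.07, 19.51 and 18.92 in donors 1 to 5 with PF-06650833 alone. In the same donors it stood at 16.64, 17.61, 17.20, 18.68 and 16.64 with IL-1β plus PF-06650833. Every donor was lower with IL-1β, but the groups overlapped: donor 4 with IL-1β lay above donors 1, 2 and 3 without it. The mean was 18.74 ± 0.53 (SD, n = 5) against 17.36 ± 0.85, a log2 difference of -1.38 (SE 0.46, 95% interval -2.40 to -0.36), and it did not pass the test (limma adjusted p = 0.0682). With the donor as a block the same difference passed (adjusted p = 0.0147, interval -2.07 to -0.70).

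COL1A2, which encodes the α2 chain, followed the same pattern. Its levels with PF-06650833 alone were 18.77, 18.50, 18.83, 19.11 and 18.50 in donors 1 to 5. With IL-1β plus PF-06650833 they were 17.01, 17.49, 17.69, 18.62 and 16.51. The lowest PF-06650833 alone library was thus above 4 of the 5 IL-1β libraries, the exception being donor 4. The difference of the means was -1.28 (SE 0.42, interval -2.19 to -0.36), with a limma adjusted p of 0.0614 without the block and 0.0169 with it. Both type I genes were near the threshold, and other settings without the block also called COL1A2 (5 settings, adjusted p from 0.0168 to 0.0489) or COL1A1 (3 settings, 0.0166 to 0.0447), while quantile normalization gave -0.89 for COL1A2, not called. Leaving out the IL-1β plus PF-06650833 library of donor 4 gave called falls for both genes, -1.71 for COL1A1 (limma adjusted p = 0.0168) and -1.57 for COL1A2 (adjusted p = 0.0172). Leaving out donor 4 altogether did so too, at -1.52 (adjusted p = 0.0303) and -1.47 (adjusted p = 0.0349).

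The share of all normalized counts taken by the type I genes was 2.10 to 3.39% under the inhibitor alone, and 0.537 to 2.17% when IL-1β was present. The 9 members with a row, which leave out COL3A1, together took 2.66, 2.43, 2.60, 4.08 and 2.76% in donors 1 to 5 of the first group. They took from 0.689% (donor 5) to 2.57% (donor 4) in the second. Each donor was lower with IL-1β, and donor 4 with IL-1β lay within the range of the cells without it. In rank among all genes of a library, COL1A1 was between 1 and 3 in every PF-06650833 alone library and between 2 and 21 in the IL-1β libraries. Shares and ranks are not corrected for gene length.

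Of the type V genes, COL5A1, which encodes the α1(V) chain found in most type V molecules, fell. It stood at 16.33, 15.87, 16.68, 17.11 and 16.45 in donors 1 to 5 with PF-06650833 alone. When IL-1β was added it stood at 14.88, 15.27, 15.86, 16.27 and 14.64. All 5 donors were lower with IL-1β, while the groups overlapped through donor 4 of the IL-1β group. The difference was -1.10 (SE 0.34, interval -1.84 to -0.37, limma adjusted p = 0.0468, and 0.008 with the block). This call was close to the threshold and was lost in 11 of 15 leave-out fits (each without 1 library or 1 donor), where the difference ranged from -1.32 to -0.92. These were the fits without the PF-06650833 alone library of donor 1, 3, 4 or 5, without the IL-1β library of donor 1, 2 or 5, and without donor 1, 2, 3 or 5. No leave-out fit, here or for other genes, held a donor term, so such losses concern the fit without the block.

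COL5A2, the α2(V) chain, was lower in 5 of 5 donors without passing the test. Its levels were 15.74, 15.54, 15.67, 16.75 and 15.91 under the inhibitor alone and 14.63, 15.42, 15.03, 16.05 and 14.80 with IL-1β. Donor 2 differed by -0.13, and donors 1 and 5 by -1.11 and -1.12. The mean difference was -0.74 (SE 0.31, interval -1.41 to -0.07, limma adjusted p = 0.131). With the block the adjusted p was 0.0206, still short of the minimum fold change.

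COL5A3, the α3(V) chain, differed between donors in direction. It stood at 9.38, 8.97, 8.24, 8.01 and 9.65 under the inhibitor alone and at 8.88, 6.99, 10.75, 8.78 and 7.93 with IL-1β. Donors 3 and 4 were higher with IL-1β, by 2.50 and 0.77, and the other donors were lower, donor 2 by -1.98. The mean difference of -0.19 had an interval of -1.50 to 1.13 (limma adjusted p = 0.874). It turned above 0 without the PF-06650833 alone library of donor 5 (0.01), without the IL-1β library of donor 2 (0.23), and without donor 2 (0.26) or donor 5 (0.20).

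The widest difference among the members was in COL11A1, the α1 chain of type XI collagen. With PF-06650833 alone it stood at 12.63, 13.66, 12.20, 13.81 and 14.08 in donors 1 to 5. With IL-1β plus PF-06650833 it stood at 8.16, 10.21, 10.77, 11.23 and 8.69. The lowest library of the first group was 0.97 above the highest of the second. In estimated reads the ranges were 3585 to 16587 and 217 to 1698. COL11A1 fell by 3.46 on the log2 scale, an 11.0-fold lower mean (SE 0.59, interval -4.76 to -2.16, limma adjusted p = 0.00344, and 0.00333 with the block). The fall was present in each donor but unequal, from -1.43 in donor 3 to -5.38 in donor 5. The call was kept in all 15 leave-out fits.

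**Figure D2:**
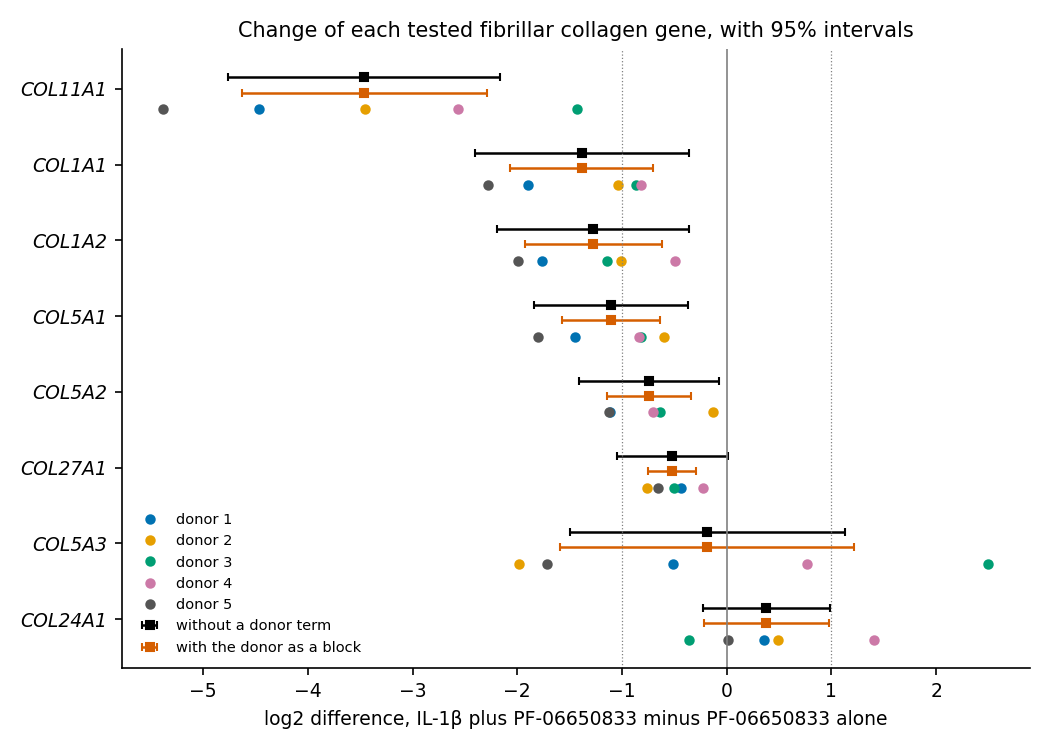
Log2 difference between IL-1β plus PF-06650833 and PF-06650833 alone (x axis) for the 8 tested members, with squares for the mean and bars for the 95% interval, without a donor term in black and with the donor as a block in orange, and circles for single donors. The intervals of COL11A1 lie wholly below -1. Those of COL5A3 and COL24A1 cross 0, as does that of COL27A1 without a donor term (-1.05 to 0.01). The dotted lines mark the minimum fold change.

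The other members were expressed at low or middle levels. COL27A1, the chain of type XXVII collagen, stood at 10.27, 10.64, 11.14, 10.77 and 10.23 under the inhibitor alone and at 9.83, 9.87, 10.64, 10.54 and 9.57 with IL-1β. It was lower in 5 of 5 donors, with donor differences from -0.76 to -0.23 (SD 0.21). The mean difference was -0.52 (interval -1.05 to 0.01, limma adjusted p = 0.175). The block brought the adjusted p to 0.00977 with an interval of -0.75 to -0.29, below the minimum fold change. Being lower in 5 of 5 donors was shared by 16.8% of all tested genes.

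COL24A1, the chain of type XXIV collagen, was read 0 to 11 times in a library under the inhibitor alone and 7 to 11 times with IL-1β, by estimate. At this depth its difference of 0.38 (interval -0.23 to 0.99, limma adjusted p = 0.404) was not distinguishable from 0. On log2(normalized count + 1) or + 0.5 the difference was 0.98 or 1.19, and without donor 4 or that donor's PF-06650833 alone library it was 0.12 or 0.14, none of them called. COL2A1, the type II chain, had 1, 0, 1, 5 and 4 estimated reads in donors 1 to 5 under the inhibitor alone and 0 reads in all 5 libraries with IL-1β. These counts are at or near the floor of 3 reads and no fold is given. COL11A2, a fibrillar collagen gene outside the list and named after its values were seen, reached no more than 4 estimated reads.

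The donors differed in the size of the change. Donors 5 and 1, in that order, had the most negative differences in COL1A1, COL1A2, COL5A1, COL5A2 and COL11A1, which are 5 of the 8 tested members. For COL1A1 the differences were -1.90, -1.04, -0.87, -0.82 and -2.28 in donors 1 to 5. For COL5A1 they were -1.45, -0.60, -0.82, -0.84 and -1.80. COL5A3, COL24A1 and COL27A1 had other orders, with donor 2 or donor 3 the most negative. The members share libraries, so a common order over members is a description of these donors.

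Ratios of chains were compared within each library, from normalized counts plus 1. They are not corrected for gene length, and their difference between groups is what is read. The COL11A1 to COL5A1 log2 ratio was -3.71, -2.21, -4.48, -3.31 and -2.37 in donors 1 to 5 with PF-06650833 alone. With IL-1β it was -6.82, -5.08, -5.10, -5.05 and -6.02. The groups did not overlap and the mean differed by -2.40 (exact two-sided permutation p = 0.00794, the smallest that 5 against 5 allows, adjusted p = 0.0317 over 4 ratios). The ratio was lower in 5 of 5 donors. An exact sign-flip test by donor gave p = 0.0625, the smallest that 5 donors allow. Without the IL-1β library of donor 1, 2, 4 or 5 the adjusted permutation p was 0.0635, with differences of -2.10, -2.53, -2.54 and -2.30. Each of the 5 fits without a donor gave the smallest exact permutation p that 4 against 4 allows, 0.0286, so their adjusted p of 0.0571 to 0.114 says nothing about stability.

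The COL1A1 to COL1A2 ratio averaged 0.00 ± 0.50 (SD, n = 5) under the inhibitor alone, against -0.11 ± 0.30 with IL-1β (exact permutation adjusted p = 0.69). The donor differences ranged from -0.33 to 0.27, so no difference between the type I chains was detected. The COL5A1 to COL5A2 ratio was lower in 5 of 5 donors, at 0.56 ± 0.27 against 0.20 ± 0.40, but did not pass the test (exact permutation adjusted p = 0.27). It passed without the IL-1β library of donor 3 (-0.52, exact permutation adjusted p = 0.0317). The COL5A1 to COL1A1 ratio differed by 0.28 and was higher in 4 of 5 donors (exact permutation adjusted p = 0.519). It was 0.12 without the IL-1β library of donor 3, 0.14 without the PF-06650833 alone library of donor 2 and 0.49 without that of donor 3.

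**Figure D3:**
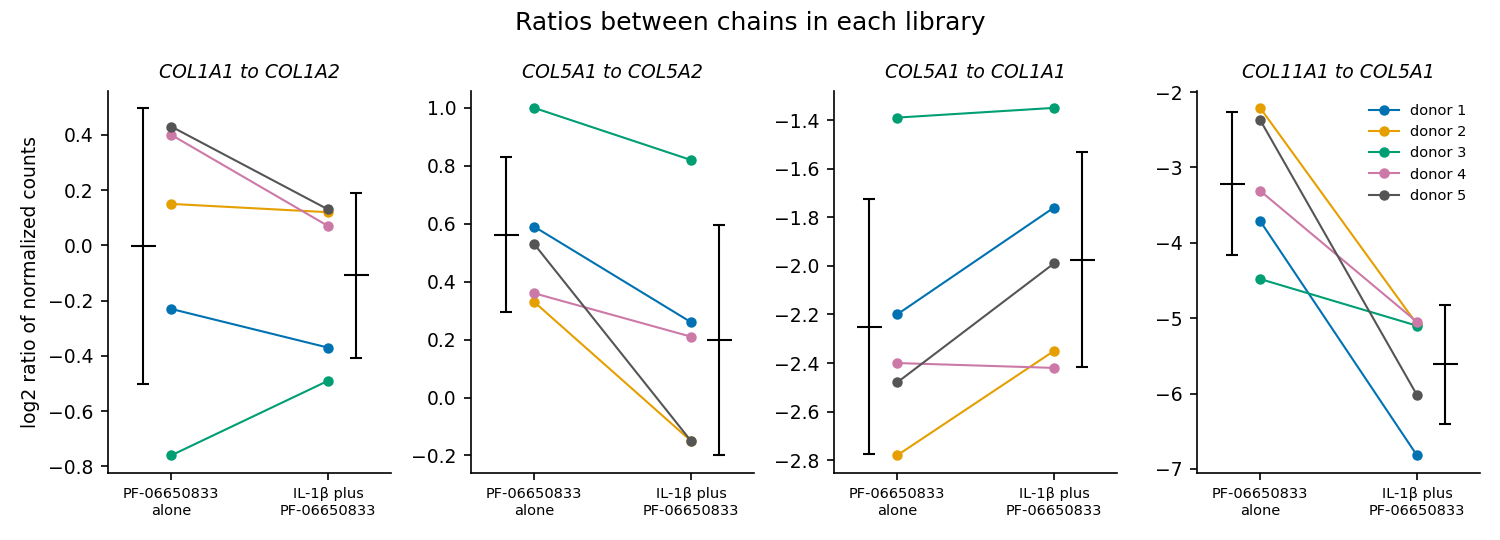
Log2 ratio of normalized counts plus 1 (y axis) for 4 pairs of chains in each library, by group (x axis), with lines joining the same donor and bars for the group mean and SD. The COL11A1 to COL5A1 ratio is the pair whose groups are apart, at or above -4.48 in every PF-06650833 alone library and at or below -5.05 in every library with IL-1β.

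Genes of the collagen pathway were counted by role, without a test over a list. For comparison, the called share of all tested genes was 6.68% (3.11% higher, 3.57% lower), and 8.26% with the block. Of 24 tested genes of procollagen folding and secretion, 1 rose and none fell, with a median log2 fold change of -0.22. The gene that rose was TMEM38B, a cation channel of the endoplasmic reticulum (1.08, limma adjusted p = 0.00755), and its change was below 1 without donor 4 (0.86) or that donor's IL-1β library (0.91). SERPINH1, the collagen chaperone HSP47, differed by -0.27 (adjusted p = 0.501). P3H2, a prolyl 3-hydroxylase, was called lower with the block (-1.03, adjusted p = 0.0491, and 0.234 without it), which made 1 higher and 1 lower. No other alternative called it, the block on log2(normalized count + 1) included (-1.21, adjusted p = 0.0573), and the difference was -0.68 without the PF-06650833 alone library of donor 5.

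Of 7 tested genes of propeptide removal, 2 fell and 1 rose. PCOLCE, which enhances cleavage of the C-propeptide, went from 14.05 ± 0.24 (SD, n = 5) to 11.88 ± 0.86 (log2 fold change -2.17, limma adjusted p = 0.00226). TLL1, a tolloid protease, fell by 2.66 (adjusted p = 0.00978). The related enhancer PCOLCE2 rose by 1.57 (adjusted p = 0.0451), a call lost in 11 of the 15 leave-out fits (adjusted p up to 0.197): without the PF-06650833 alone library of donor 2, 3, 4 or 5, the IL-1β library of donor 1, 2 or 5, or donor 1, 2, 4 or 5. BMP1, the main C-propeptidase, differed by 0.33 and ADAMTS2, an N-propeptidase, by -0.90 (adjusted p = 0.0184), which is below the minimum fold change.

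All 5 genes of fibril cross-linking had negative log2 fold changes, as had 9124 of the 17992 tested genes, and 3 of the 5 fell. LOXL1 (-0.21, limma adjusted p = 0.528) and LOXL3 (-0.33, adjusted p = 0.228) did not pass the test, and each was higher in 1 donor. LOXL2 went from 13.95 ± 0.10 (SD, n = 5) to 12.27 ± 0.61, a difference of -1.68 (limma adjusted p = 0.00143). LOXL4 fell by 2.25 (adjusted p = 0.00103) and LOX by 2.37 (adjusted p = 0.0172). All are amine oxidases that start cross-links between collagen chains. LOX was not called without donor 1, 2 or 5 (adjusted p = 0.0737, 0.0515 and 0.0682).

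Of 20 genes of fibril assembly partners, 7 fell and none rose, with a median of -1.12. ASPN, which encodes the small proteoglycan asporin, fell by 5.94 (limma adjusted p = 0.00482). THBS2, a thrombospondin, fell by 3.53 (adjusted p = 0.00386) and COL12A1, a collagen that sits on the fibril surface, by 2.74 (adjusted p = 0.00473). COMP, the cartilage oligomeric matrix protein, fell by 3.63 (adjusted p = 0.00794), but not without donor 2 or 5 (adjusted p = 0.0509 and 0.0517). The others that fell were OGN (-4.66), PRELP (-1.56) and FN1 (-1.41), whose calls were lost in 2, 9 and 10 of the 15 leave-out fits. For OGN these were the fits without donor 1 or 2. For PRELP they were those without the PF-06650833 alone library of donor 2, 4 or 5, the IL-1β library of donor 1 or 2, or donor 1, 2, 4 or 5 (adjusted p up to 0.12). For FN1 they were those without the PF-06650833 alone library of donor 1, 2, 4 or 5, the IL-1β library of donor 1, 2 or 5, or donor 1, 2 or 5 (adjusted p up to 0.158). DCN, which encodes decorin, was higher in 5 of 5 donors, by 0.04 to 1.99. Its mean difference of 1.01 did not pass the test (adjusted p = 0.268). COL6A3 (-1.16, adjusted p = 0.011) and ABI3BP (-1.28, adjusted p = 0.0336) were called lower with the block, which made 9.

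**Figure D4:**
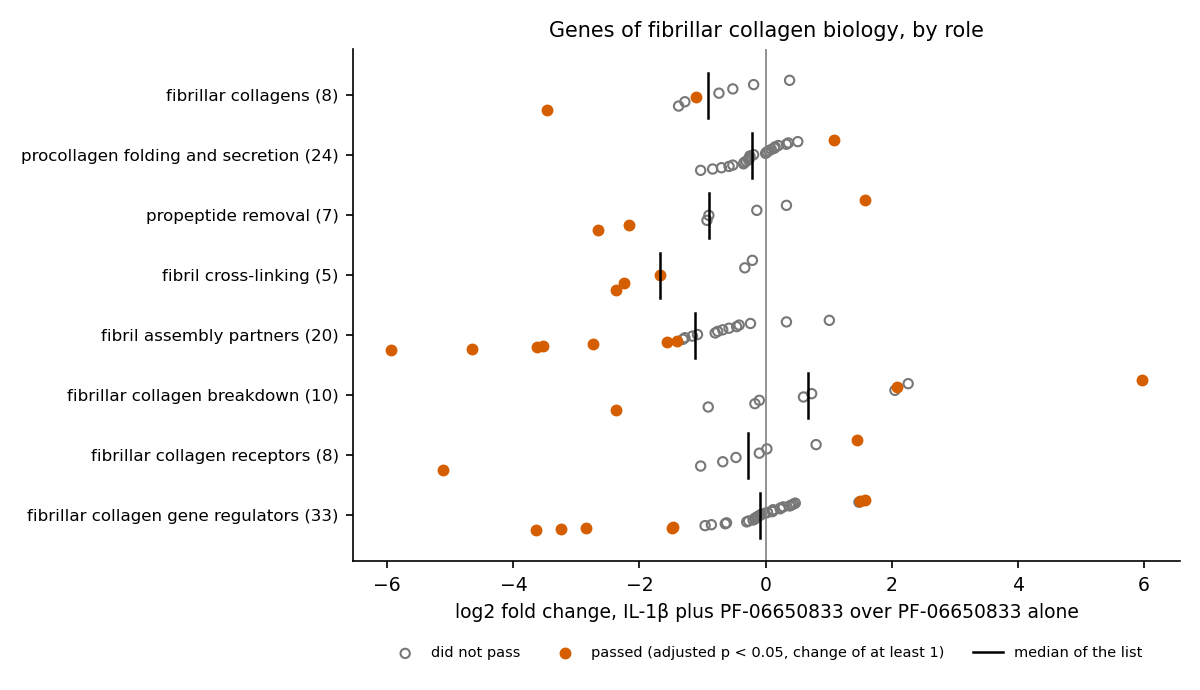
Log2 fold change (x axis) of every tested gene in the collagen lists, by role (y axis), with filled points for genes called changed and a bar at each list's median. Cross-linking genes all lie below 0, with 3 of the 5 called, and the breakdown list holds MMP1 at 5.97.

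Of 10 genes of fibrillar collagen breakdown, 2 rose and 1 fell, with a median of 0.67. MMP1, a collagenase that cuts the intact triple helix, went from 8.57 ± 2.99 (SD, n = 5) to 14.54 ± 2.26 (log2 fold change 5.97, limma adjusted p = 0.0165), and the call was lost without donor 1 or 5 (adjusted p = 0.0678 and 0.0919). Its estimated reads were 3 to 2973 under the inhibitor alone and 2515 to 178542 with IL-1β. MMP1 was higher in 5 of 5 donors, but the groups overlapped, and its lowest library was at the floor of 3 reads, where the scale compresses differences. MMP9, a gelatinase, rose by 2.09 (adjusted p = 0.0182), but not without donor 1, 2 or 5 (adjusted p = 0.103, 0.0719 and 0.0703). MMP9 was lower with IL-1β in donor 4 (-0.18), and its groups overlapped. FAP, a membrane protease that cuts denatured collagen, fell by 2.38 (adjusted p = 0.00646). MMP13, another collagenase, differed by 2.05 without passing the test (adjusted p = 0.113), with donor differences from -0.58 to 6.06. MMP8, the neutrophil collagenase, had 0 to 4 estimated reads under the inhibitor alone and 4 to 485 with IL-1β, and was called higher with the block (2.26, adjusted p = 0.0373) but not without it (adjusted p = 0.0793). Its difference ranged from 2.25 to 3.96 over the other settings and from 1.56, without the IL-1β library of donor 2, to 2.83 in the leave-out fits.

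Of 8 tested collagen receptors, 1 fell and 1 rose. ITGA11, the integrin subunit of a fibrillar collagen receptor, went from 14.42 ± 0.98 (SD, n = 5) to 9.32 ± 2.42 (log2 fold change -5.11, limma adjusted p = 0.00628). DDR1, a receptor kinase that binds collagen, rose by 1.45 (adjusted p = 0.00656). The related DDR2 differed by -0.68 (adjusted p = 0.0198), below the minimum fold change. ITGA1, another collagen-binding integrin subunit, was called lower with the block (-1.03, adjusted p = 0.00307).

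Of 33 tested regulators of fibrillar collagen genes, 5 fell and 2 rose. SCX, the scleraxis gene of the tendon lineage, fell by 3.24 (limma adjusted p = 0.000611) and MKX, the mohawk gene, by 2.85 (adjusted p = 0.00554). SOX9 and SOX6, which act on cartilage collagen genes, fell by 1.49 (adjusted p = 0.000752) and 3.64 (adjusted p = 9.8e-05), while their partner SOX5 rose by 1.58 (adjusted p = 0.0123, lost without donor 1, 2 or 5). CREB3L1, which drives COL1A1 in bone, fell by 1.47 (adjusted p = 0.00345), and CEBPB, an inflammation-responsive factor, rose by 1.5 (adjusted p = 0.000186).

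Some markers of other cell types differed between the groups as well, while most of those listed were not called. The summed level of the chondrocyte list was 4517 to 13073 normalized counts under the inhibitor alone and 338 to 615 with IL-1β. Of its 10 genes, 2 were called lower by limma, ACAN (-6.29, 3181 to 10935 reads against 13 to 168) and SOX9 (739 to 1044 against 201 to 430). COL9A2 (-0.18), MATN3 (0.44), CNMD (0.0) and COL10A1 (-0.5) were not called, and COL9A1 was at 0 reads in all libraries. The mural list summed to 2230 to 3982 against 1118 to 2856, with RGS5 (-1.96) and CSPG4 (-1.84) called lower by limma. NOTCH3 (-0.61), MCAM (0.34) and ABCC9 (1.02) were not called. The skeletal muscle list summed to 150 to 1703 against 17 to 149, with DES called lower (-2.98, limma adjusted p = 0.00546, 112 to 1033 reads against 13 to 131) and MYOD1 and MYOG at 0. The epithelial list summed to 539 to 1574 against 45 to 444, with CDH1 called lower (-2.22, limma adjusted p = 0.0136, 403 to 1444 reads against 38 to 315) and EPCAM and KRT5 at 0. The leukocyte list summed to 61 to 1767 against 171 to 1943, with CD68 called higher by limma (1.70, adjusted p = 0.00795, 51 to 82 reads against 148 to 652). CD14, at 0 to 1458 reads against 0 to 1374, was not called (limma adjusted p = 0.34), and PTPRC, CSF1R and AIF1 were at 3 reads or fewer. The endothelial list summed to 16 to 50 against 5 to 31, with no gene called. The part of these markers in the collagen results was not tested.

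The profile nearest to each member over the 10 libraries was taken among 13857 genes, as the root mean square difference of centred log2 values. The other members and genes named only by a LOC number were left out. The centred values keep the difference between the groups. COL11A1 was nearest to THBS2 (0.43) and COL1A1 to CSPG5 (0.30). COL1A2 and COL5A1 shared the nearest gene, SLC6A9 (0.24 and 0.19), and lay 0.24 from each other. COL5A2 was nearest to FKBP10 (0.20), which encodes a collagen-folding protein, and COL27A1 to FOXK1 (0.12). COL5A3 and COL24A1 were nearest to OLFM2 (0.40) and CFAP61 (0.25). These distances describe likeness over shared libraries.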

How the data were processed

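Poly(A) RNA from 10 libraries, 2 groups of 5 donors, was sequenced as paired reads. Per the labels, the authors used FastQC 0.11.9, Salmon 1.8 and DESeq2 1.36 with EquCab3.0. The deposited values are on a log2 scale and were recognised from their form as variance-stabilised values of DESeq2, with 3.433 for 0 reads. This scale compresses differences of low genes. The transformation was inverted to give normalized counts, and the step between low values gave estimated reads (67.7 to 84.7% of low values lay within 0.15 of a whole read, against 30% if evenly spread). Counting error is smallest for the most abundant chains.

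Differences were tested with limma 3.58.1 in R 4.3.3 on 17992 genes that had reads in 5 or more libraries; the variance was moderated along a trend with the mean, no donor effect was fitted, and p-values had Benjamini-Hochberg adjustment. The same replicate number is the same donor in both groups, so donor blocking was the main alternative. Deviations from the group means correlated at 0.433 within donors (0.367 to 0.506, 5 pairs) and -0.107 between donors (20 pairs). Chain ratios (pseudocount 1) were tested by exact permutation. Of 5 planned ratios 4 were computed. Named genes were the members, up to 4 called genes of each pathway list by smallest adjusted p, and the nearest profile to each member; other list genes given with values (further called genes, those called with the block, and well-known partners) were chosen after their values were seen. The members and lists were chosen with earlier results of these data known. The fit was tested on simulated data. Other scalings, filters and left-out libraries were tried as alternatives.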

Additional observations from a re-analysis of the deposited data

Results flagged for a closer look

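Of 89 groups of 5 libraries checked, 5 held 1 library far from the other 4 by Dixon's test, where chance gives about 1 in 20. COL11A2 with IL-1β stood at 3.91 in donor 3, a single read, and at 3.43 in the others. CEBPB stood at 13.25 in donor 3 with PF-06650833 alone (others 12.67 to 12.82) and at 13.92 in the same donor with IL-1β (others 14.39 to 14.48). MMP8 with PF-06650833 alone was at 3.43 in donor 1 (others 4.21 to 4.41), and SOX5 in that group was at 7.2 in donor 4 (others 5.45 to 5.95). None of the tested members held such a library.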

How the results depend on the processing

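The limits are 5 donors per group, a log2 scale that compresses low genes, and the lack of gene lengths. COL11A1 kept its call under all alternatives. With the replicate block, 1486 genes in place of 1202 were called and 4 members in place of 2. The count of called genes was 1809 (891 higher) with the replicate block on log2(normalized count + 1), 2782 with no minimum fold change (1362 higher, 1420 lower), and a stricter adjusted p of 0.01 left 719 (345 higher, 374 lower). Leaving out a library or donor gave 762 to 1422 genes (356 to 647 higher, 389 to 775 lower). Called members numbered 4 without the mean-variance trend, with array weights and with the block on log2(normalized count + 1), 1 with no filter on low genes or at an adjusted p below 0.01, and 1 to 4 when a library or donor was left out. They numbered 3 on log2(normalized count + 1) or + 0.5 and with a mean of at least 6, where COL1A2 was added, and with quantile normalization, where COL1A1 was added. Genes called in the pathway lists numbered 26, from 18 to 30 when a library or donor was left out, and from 18 (adjusted p below 0.01) to 36 (no minimum fold change) otherwise, with 31 under the block.

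The COL11A1 to COL5A1 ratio difference of -2.40 did not pass the exact sign-flip test by donor (adjusted p = 0.125), and ranged from -2.84 to -2.09 with a library or donor left out, where 4 fits without an IL-1β library missed the threshold (adjusted p = 0.0635) and the 5 without a donor could give no exact permutation p below 0.0286. COL5A1 to COL5A2 ranged from -0.52 to -0.26, COL5A1 to COL1A1 from 0.12 to 0.49, and COL1A1 to COL1A2 from -0.29 to 0.00, its sign turning without the PF-06650833 alone library of donor 5. COL5A3 turned to 0.01, 0.23, 0.26 and 0.20 (range -0.86 to 0.26), and OLFM2 to 0.01 and 0.17 (range -0.85 to 0.17), with a library or donor left out. The median log2 fold change of all genes was -0.01, and 0.02 after median centring. Of the 26 called list genes, 16 kept their call in all 15 fits. None of these fits had a donor term. With the block on all 10 libraries, each list gene that lost its call in any of them was called. The cause of these changes was not tested.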
